A study of Mus musculus with 67 samples.

Results

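Chromatin accessibility was examined at the loci of the SoxB genes Sox1, Sox2, Sox3, Sox14 and Sox21 while neuromesodermal progenitors (NMPs) became ventral neural progenitors (NPs) of the spinal cord. Members were the elements (regions of open chromatin) of the deposited value table whose nearest annotated gene was 1 of these 5 genes. They numbered 40 of 111638 elements, or 0.0358%, with 16 at Sox1, 14 at Sox3, 7 at Sox2, 3 at Sox14 and 0 at Sox21. Each is named by its gene and the distance of its centre from the start site in kb, positive in the direction of transcription. Places in genes are those of the deposited RefSeq-based annotation unless GENCODE is named. Another 6 elements annotated to these genes had no values in the table and were not used here.

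Accessibility was measured by CaTS-ATAC, which sorts fixed, Tn5-transposed cells on intracellular proteins before the libraries are made. All 67 samples came from the mouse ES cell line HM1. NMPs were collected at day 3, after bFGF and LGK and then bFGF, CHIR99021, SB-431542 and DMH1, without the Sonic hedgehog agonist SAG (3 samples). NPs received 100 nM retinoic acid (RA) from day 3 with SAG at 0, 10, 100 or 500 nM, and were sorted at days 4, 5 and 6 as p0-1 (0 and 10 nM), p2 (10 and 100 nM), pMN or p3 (each from 100 and 500 nM). From dorsal to ventral these are the p0 and p1, p2, motor neuron and p3 progenitors. There were 23 NP samples from day 4, 22 from day 5 and 19 from day 6, and of 25 conditions 17 had 3 samples and 8 had 2. SOX2 protein was part of the NP gate together with PAX6, NKX6.1, OLIG2 and NKX2.2, so every NP sample held cells chosen for SOX2. NPs and NMPs differ in day and medium, and the gate given is that of the NPs, so cell state and these cannot be told apart in any comparison with NMP. In bulk samples a lower value from fewer cells with an open element cannot be told apart from less open chromatin per cell.

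SoxB proteins are HMG-box transcription factors. Sox1, Sox2 and Sox3 form the SoxB1 group, which activate transcription, keep neural progenitors undifferentiated and partly stand in for each other. Sox2 is also a pluripotency factor and is expressed in NMPs. Sox14 and Sox21 form the SoxB2 group, which mainly repress transcription, and Sox14 is known as a marker of some ventral interneurons. The SoxB1 genes are single-exon genes surrounded by many distal enhancers, and different enhancers are known to drive the same gene in different tissues and at different stages.

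The central 300 bases of 6 elements are given because the calls described below fall on them, the highest log2 ratio of each gene among them. They are from the + strand of GRCm38 (mm10), 5′ to 3′, and capitals mark matches on either strand to the SOX motifs ACAAAG and ACAATG, the octamer ATGCAAAT bound by POU factors and the nuclear receptor motif AGGTCA.
Sox2 +29.6 kb, chr3:34679449-34679748: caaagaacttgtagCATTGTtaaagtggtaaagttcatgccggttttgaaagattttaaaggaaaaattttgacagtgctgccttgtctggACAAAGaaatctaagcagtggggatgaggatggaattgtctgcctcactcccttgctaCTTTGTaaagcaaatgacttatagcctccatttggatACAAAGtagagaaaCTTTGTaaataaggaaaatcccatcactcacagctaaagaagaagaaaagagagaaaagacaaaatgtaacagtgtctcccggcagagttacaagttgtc
Sox1 +14.3 kb, chr8:12409692-12409991: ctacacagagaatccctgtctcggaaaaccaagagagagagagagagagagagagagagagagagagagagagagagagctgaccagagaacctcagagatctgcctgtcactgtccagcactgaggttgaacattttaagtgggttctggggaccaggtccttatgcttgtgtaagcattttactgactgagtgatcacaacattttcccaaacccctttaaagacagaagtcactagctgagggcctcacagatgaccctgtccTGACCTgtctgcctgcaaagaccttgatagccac
Sox1 +37.2 kb, chr8:12432549-12432848: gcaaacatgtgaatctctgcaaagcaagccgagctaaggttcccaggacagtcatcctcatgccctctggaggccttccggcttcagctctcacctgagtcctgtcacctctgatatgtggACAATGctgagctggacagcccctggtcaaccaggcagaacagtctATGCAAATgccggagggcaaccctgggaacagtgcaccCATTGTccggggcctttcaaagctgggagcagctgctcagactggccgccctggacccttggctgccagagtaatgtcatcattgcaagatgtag
Sox3 +94.0 kb, chrX:60799300-60799599: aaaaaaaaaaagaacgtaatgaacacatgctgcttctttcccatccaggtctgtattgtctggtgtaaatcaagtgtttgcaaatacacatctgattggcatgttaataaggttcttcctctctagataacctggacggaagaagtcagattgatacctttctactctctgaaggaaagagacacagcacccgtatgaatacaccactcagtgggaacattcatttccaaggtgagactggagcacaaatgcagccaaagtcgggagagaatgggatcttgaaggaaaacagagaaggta
Sox3 +162.0 kb, chrX:60731287-60731586: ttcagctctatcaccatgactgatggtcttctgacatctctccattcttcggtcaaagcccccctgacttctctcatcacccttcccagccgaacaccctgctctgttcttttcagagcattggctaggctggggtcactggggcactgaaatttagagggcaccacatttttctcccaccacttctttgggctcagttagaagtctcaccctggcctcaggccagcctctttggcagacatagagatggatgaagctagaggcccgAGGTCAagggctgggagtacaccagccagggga
Sox14 +77.5 kb, chr9:99798471-99798770: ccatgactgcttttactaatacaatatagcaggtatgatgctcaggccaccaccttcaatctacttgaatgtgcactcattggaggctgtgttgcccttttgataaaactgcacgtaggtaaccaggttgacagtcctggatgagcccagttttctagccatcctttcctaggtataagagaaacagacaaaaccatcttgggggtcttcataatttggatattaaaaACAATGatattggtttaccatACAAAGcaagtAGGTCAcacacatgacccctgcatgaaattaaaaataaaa

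Values are given as normalized counts, which are reads divided by the size factor of each sample. A call required an adjusted p under 0.01, from limma on the variance-stabilized values (VST, on a log2 scale) with Benjamini-Hochberg adjustment over all elements with a mean above 100 in the samples compared, and an absolute log2 ratio of mean normalized counts (with 1 added to each mean) above 2. Of all 40 members, 26 (65%) had a mean above 100 over all samples, against 28.4% of the table. The other 14 were low and are covered below by the counts made without this filter.

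The elements over the start sites of Sox1, Sox2 and Sox3 were open in NMPs and in all NPs, whereas that of Sox14 was not open to the same level throughout. The Sox2 gene lies at chr3:34650405-34652461 on the + strand, and its promoter element, Sox2 -0.4 kb (chr3:34647869-34651377), had 1595, 1528 and 1415 normalized counts in the 3 NMP samples. The NPs had 1157 to 2142 (median 1685, n = 23) at day 4 and 1668 to 2088 (median 1850, n = 19) at day 6. The day 4 samples overlapped those of NMP, and all 19 samples of day 6 were above them. Against NMP the log2 ratio was 0.05 in p0-1, 0.08 in p2, 0.28 in pMN and 0.24 in p3 at day 4, and it was not called in any of them.

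Sox1, chr8:12395295-12400126 on the + strand, is known to be switched on as neural identity is acquired. The element over its single exon, Sox1 +0.8 kb (chr8:12394906-12397696), had 1623, 1590 and 1213 normalized counts in NMPs and 1939 to 2959 (median 2280) at day 4. No day 4 sample overlapped the NMP samples, but the log2 ratios of 0.59 to 0.76 were below the threshold. The Sox3 promoter element, Sox3 +0.1 kb (chrX:60892098-60894567, gene chrX:60891366-60893430 on the - strand), had 1015, 1016 and 1003 in NMPs, 865 to 1880 (median 1119) at day 4 and 1213 to 2245 (median 1725) at day 6. These values overlapped those of NMP at day 4 and lay above them at day 6. Per kb of element, the mean levels in NMPs were 529 normalized counts at Sox1, 431 at Sox2, 409 at Sox3 and 462 at Sox14 over the start site. At day 6, as the mean of the 4 NP types, they were 895, 538 and 698 for Sox1, Sox2 and Sox3 and 43 for Sox14. These levels are not adjusted for gene copies, and Sox3 lies on the X chromosome of a line that the paper lists as male.

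Sox14 (chr9:99874106-99876170, - strand) had the only start-site element that was called lower. Sox14 +0.1 kb, over the single exon at chr9:99874943-99877133, had 1010, 1211 and 818 normalized counts in NMPs, 105 to 338 (median 147) at day 4 and 70.4 to 142 (median 89.3) at day 6. Every NP sample was below the lowest NMP sample. It fell by 2.40 in p0-1 (SE of the difference of mean VST values 0.25, adjusted p = 1.3e-06), by 2.80 in p2, by 2.90 in pMN and by 2.58 in p3 on the log2 scale. The neighbouring Sox14 +5.3 kb went from 1366, 1513 and 1257 in NMPs to 435 to 883 (median 595) at day 4, without overlap, with log2 ratios of -0.93 to -1.36 that were not called.

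**Figure D1:**
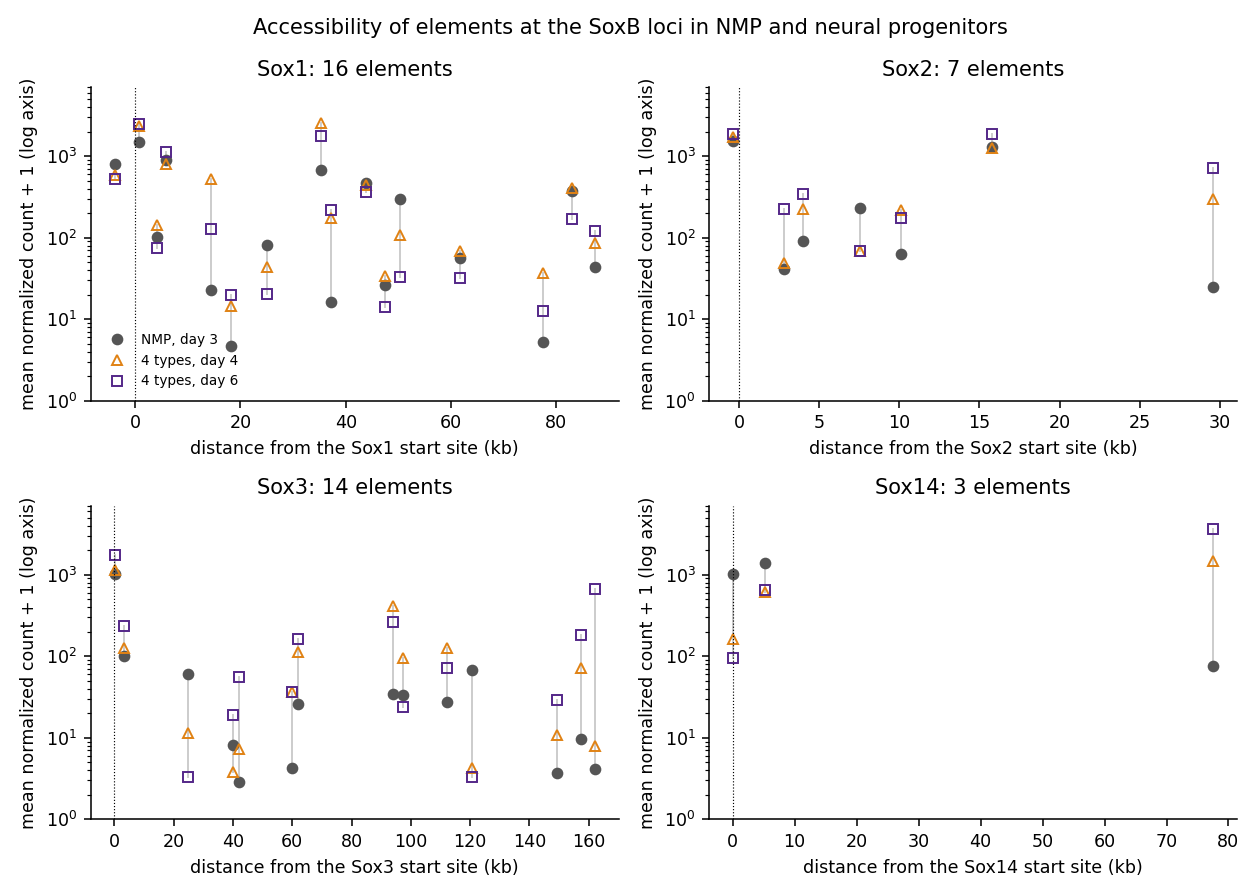
Mean normalized counts plus 1 (log axis) of the 40 elements against distance from the start site in kb (positive: direction of transcription), 1 panel per gene, as the mean of 3 NMP samples (circles) and the mean of the 4 NP types at day 4 (triangles) and day 6 (squares). The start-site elements of Sox1, Sox2 and Sox3 lie close together at all times, and the widest gaps are at distal elements and at Sox14 +0.1 kb.

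Distal elements of Sox1, Sox2 and Sox3, and 1 of Sox14, opened between NMP and day 4. Over all 40 members the mean of the 4 NP types at day 4 was more than 1 log2 unit above NMP at 17 (42.5%), more than 1 below at 7 (17.5%) and in between at 16. Over all elements of the table these shares were 37.5% and 21.9%, so those of the members were near them. The median log2 ratio was 0.59 for the members and 0.20 for the table. The split was 5 above, 1 below and 10 between at Sox1, 3, 1 and 3 at Sox2, 8, 3 and 3 at Sox3, and 1, 2 and 0 at Sox14. The 4 comparisons of day 4 NPs with NMP share the same 3 NMP samples, so their values are given side by side and are not independent.

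At Sox2, the element farthest from the gene rose most. Sox2 +29.6 kb (chr3:34678647-34680549) is intergenic, and its central window overlaps an exon of the non-coding gene Sox2ot in GENCODE. It had 23, 18.9 and 30.2 normalized counts in NMPs, 178 to 526 (median 282) at day 4, 552 to 1064 (median 688) at day 5 and 433 to 1057 (median 705) at day 6. All NP samples were above the NMP samples. The log2 ratio against NMP was 3.31 in p0-1 (SE 0.20, adjusted p = 2.27e-08), 3.39 in p2, 3.51 in pMN and 4.0 in p3 (SE 0.22, adjusted p = 2.89e-10). Its central 300 bases held 5 SOX matches, 4 of ACAAAG and 1 of ACAATG, and 205 elements of the table (0.184%) held at least 5.

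Another Sox2 element was lower in NPs. Sox2 +7.5 kb, in intron 4 of Sox2ot (chr3:34656841-34658244), had 251, 239 and 209 in NMPs, 48.9 to 107 (median 68.3) at day 4 and 50.7 to 114 (median 61.5) at day 6, without overlap. Its log2 ratios of -1.86, -1.79, -1.57 and -1.91 in p0-1, p2, pMN and p3 had adjusted p of 1.36e-05, 9.51e-08, 2.09e-07 and 1.26e-07 but did not reach the threshold of 2. The highest of the day 4 values, 107, was that of p0-1 at 10 nM, replicate 3, and without this sample the element was called lower in p0-1. Sox2 +4.0 kb and Sox2 +10.1 kb lie in the same intron on either side of it and had the opposite direction, with log2 ratios of 1.11 to 1.45 and of 1.42 to 1.98 that were not called. The widest member, Sox2 +15.8 kb (6090 bp), had 1378, 1252 and 1202 in NMPs and 938 to 1574 (median 1243) at day 4, overlapping.

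At Sox1, 3 elements inside the overlapping non-coding gene Sox1ot were called higher. Sox1 +14.3 kb (chr8:12409016-12410666, intron 1) had 24.2, 24.3 and 16.2 in NMPs, 337 to 888 (median 475) at day 4, 136 to 801 (median 384) at day 5 and 62 to 199 (median 130) at day 6. All NP samples were above those of NMP, and the day 6 samples were all below the day 4 samples. Its log2 ratio against NMP at day 4 was 5.03 in p0-1 (SE 0.16, adjusted p = 1.18e-10), 4.54 in p2, 4.32 in pMN and 4.18 in p3.

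Sox1 +35.2 kb (chr8:12429665-12431862, intron 6) and Sox1 +37.2 kb (chr8:12432518-12432878, intron 7) lie next to each other, and in GENCODE the central window of the second overlaps an exon of Sox1ot. The first had 835, 633 and 551 normalized counts in NMPs and 1554 to 3289 (median 2591) at day 4, and the second had 26.7, 8.09 and 10.8 and then 89.2 to 300 (median 169). Neither overlapped NMP at day 4. Sox1 +37.2 kb was called higher in p0-1 (log2 3.84, SE 0.25, adjusted p = 6.1e-08) and p2 (3.57). In pMN and p3 its mean over the samples compared was below 100 and it was not tested. Without the filter on the mean it was called higher there too (3.13 in pMN, 3.01 in p3). Sox1 +35.2 kb was called in p0-1 (2.08) and pMN (2.01), just over the threshold, and not in p2 (1.93) or p3 (1.57). It was no longer called higher after centring on the median, without replicate 3 or without NMP replicate 3. Among the members that were lower, Sox1 +50.3 kb (chr8:12444967-12446770, intergenic) went from 321, 309 and 263 in NMPs to 78 to 163 (median 110) at day 4 and 17.8 to 58.9 (median 30) at day 6, without overlap, and its log2 ratios of -1.34 to -1.59 at day 4 were not called.

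At Sox3 the elements that rose lay far from the gene and are annotated as intergenic. In GENCODE the central window of Sox3 +94.0 kb overlaps an exon of the antisense gene Gm14661. Sox3 +94.0 kb (chrX:60798231-60800668) had 30.3, 36.4 and 34.5 in NMPs, 228 to 569 (median 415) at day 4, 244 to 537 (median 388) at day 5 and 84.5 to 451 (median 211) at day 6, all above NMP. It rose by 3.46 log2 units in p0-1 (SE 0.15, adjusted p = 9.8e-10), 3.68 in p2, 3.90 in pMN and 3.09 in p3 at day 4. Sox3 +112.3 kb was called higher in p0-1 (2.67) and p2 (2.34), Sox3 +61.8 kb in p0-1 (2.47) and Sox3 +97.2 kb in pMN (2.13), and all 3 fell under the filter on the mean, and so were not tested, when values were averaged over SAG. Without the filter Sox3 +61.8 kb was also called in p2 (2.36) and pMN (2.16), and Sox3 +112.3 kb in p3 (2.09). Under the same setting Sox3 +120.8 kb and Sox3 +24.9 kb were called lower. Sox3 +120.8 kb had 60.6, 67.4 and 75.4 normalized counts in NMPs and a mean over the 4 types of 3.3 at day 4, and Sox3 +24.9 kb had 50.9, 59.3 and 71.1 and then 10.6.

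The distal element of Sox14 moved in the opposite direction to the start-site element. Sox14 +77.5 kb (chr9:99796848-99800393, intergenic) had 90.9, 62 and 71.1 in NMPs, 756 to 2051 (median 1477) at day 4, 1434 to 3999 (median 2944) at day 5 and 2043 to 5599 (median 3862) at day 6, all above NMP. The log2 ratio at day 4 was 4.33 in p0-1 (SE 0.27, adjusted p = 1.37e-08), 4.40 in p2, 4.52 in pMN and 3.71 in p3. The assignment to Sox14 rests on the nearest start site alone.

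**Figure D2:**
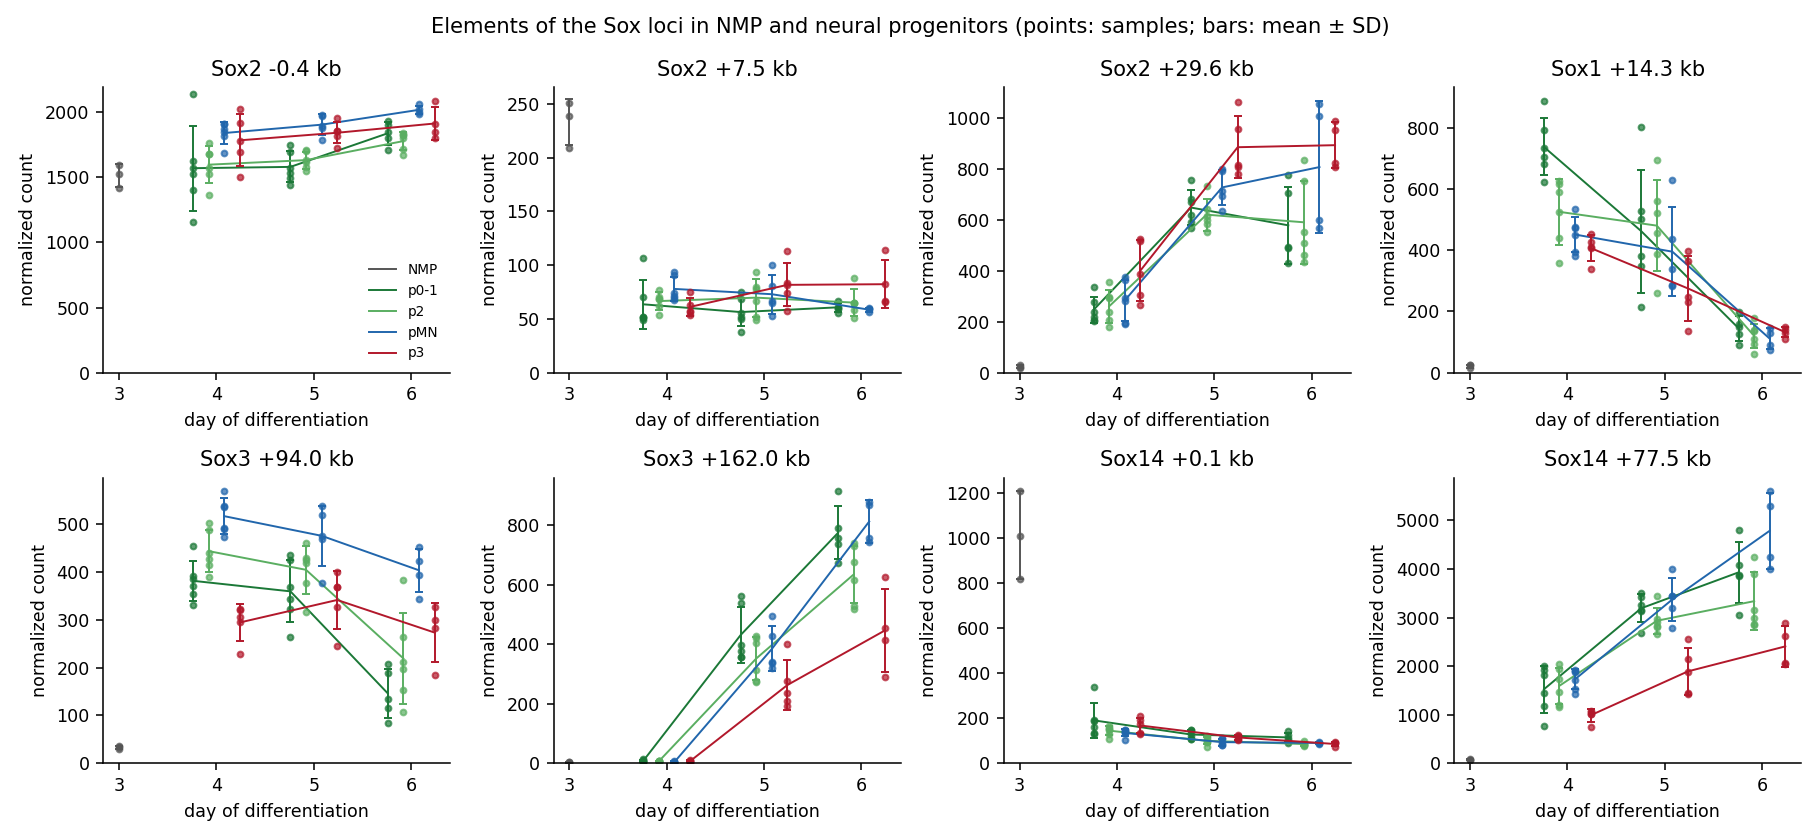
Normalized counts against day of differentiation for 8 elements in NMP (day 3) and in p0-1, p2, pMN and p3, where points are samples and bars are mean ± SD. Sox2 -0.4 kb is at similar levels throughout while Sox2 +29.6 kb, Sox1 +14.3 kb, Sox3 +94.0 kb and Sox14 +77.5 kb are near 0 on these axes in NMP and high in NPs, Sox3 +162.0 kb is near 0 through day 4, and Sox2 +7.5 kb and Sox14 +0.1 kb are highest in NMP.

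Several of the remaining Sox1 members had levels at day 4 that overlapped those of NMP. Sox1 -3.9 kb had 896, 905 and 600 normalized counts in NMPs and 473 to 741 (median 545) at day 4, Sox1 +5.9 kb had 971, 1012 and 708 and then 630 to 1305 (median 775), and Sox1 +43.8 kb had 455, 530 and 420 and then 284 to 563 (median 459). All 3 overlapped between NMP and day 4, and none was called. Sox1 +83.0 kb overlapped at day 4 (446, 312 and 360 in NMPs, 251 to 557 in NPs) and not at day 6 (115 to 275, median 161), where its log2 ratios to day 4 of -0.96 to -1.47 were not called. Low members without a call under the filter included Sox1 +77.5 kb, with 6.06, 1.35 and 5.38 in NMPs and 11.2 to 70.3 (median 39.1) at day 4, and Sox3 +42.0 kb, with 2.42, 0 and 3.23 in NMPs, 2.44 to 13.2 (median 5.37) at day 4 and 29.5 to 82.2 (median 61) at day 6. Sox1 +77.5 kb did not overlap NMP at day 4, and Sox3 +42.0 kb separated from day 4 by day 6.

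The counts of calls are given beside those of all tested elements, as a description, since a member can pass the filter on the mean only through the group in which it is high. In p0-1, 8 of the 24 tested members were called higher and 1 lower, against 14.4% and 6.21% of all tested elements. In p2, 6 and 1 of 23 were called, against 16.4% and 7.13%. In pMN, 6 and 1 of 22 were called, against 16.9% and 7.41%, and in p3 4 and 1 of 20, against 13.8% and 7.74%. Over the 4 comparisons 9 different members were called higher. The members' median log2 ratio was 0.45, 0.34, 0.41 and 0.12 in the 4 types, where that of all tested elements was -0.39, -0.51, -0.49 and -0.46, so a member at 0 lay above the middle of the table. Among members with a mean above 100, the range of the 13 means (NMP and 4 NP types at 3 days) had a median of 0.95 log2 units at the 4 start-site elements and 2.49 at the 22 others. Over all elements the medians were 0.63 at promoters and 2.27 elsewhere, the same order as for the members.

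Values of markers moved with this comparison. The summed normalized counts at 5 elements of NMP marker genes were 6230 to 7734 in NMPs and 1023 to 1782 in 22 of the 23 NP samples of day 4, and the remaining sample, p0-1 at 10 nM, replicate 3, had 2667. The sums at 3 endoderm elements were 2369 to 3079 in NMPs and 1104 to 2862 over the 4 types at day 4, and those at 3 neuronal elements were 3155 to 3743 and 1289 to 2281. Depth was 16809239 to 19271426 reads in elements in NMPs and 9298160 to 23973955 at day 4. The part of these values in the differences above was not tested.

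**Figure D3:**
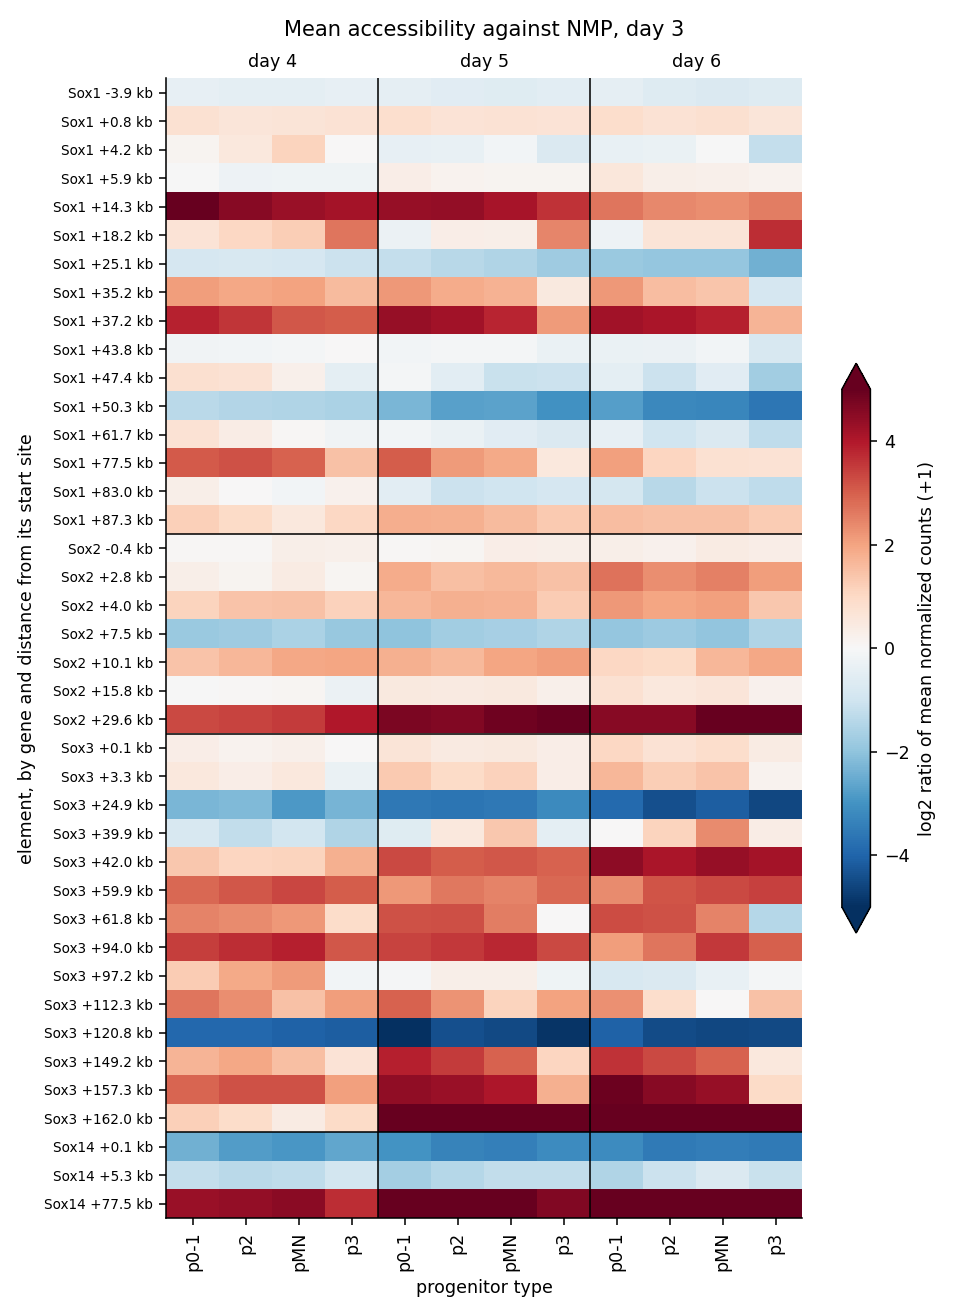
Log2 ratio of mean normalized counts (plus 1) in each NP type at days 4, 5 and 6 against the NMP mean (day 3, n = 3), for the 40 elements by gene and distance from the start site, with red above and blue below NMP. Elements of opposite colour lie next to each other at each locus, and at Sox1 and Sox3 the p3 column departs from the other types by day 6.

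From day 4 to day 6 the called members were Sox3 +162.0 kb and Sox2 +2.8 kb, which rose, and Sox1 +14.3 kb and Sox1 +35.2 kb, which fell. Sox3 +162.0 kb (chrX:60731027-60731846), the farthest element of Sox3, is intergenic and inside Gm14661 in GENCODE. It had 1.21, 4.05 and 4.31 normalized counts in NMPs and 1.7 to 15.3 (median 6.31) at day 4, which overlapped. It had 192 to 561 (median 357) at day 5 and 289 to 913 (median 730) at day 6, all above the samples of NMP and day 4. From day 4 to day 6 it rose by 6.35 log2 units in p0-1 (adjusted p = 3.01e-10), 6.31 in p2 (2.42e-12), 7.18 in pMN (2.29e-11) and 5.77 in p3 (SE 0.27, adjusted p = 8.78e-08). Its central sequence held 1 AGGTCA match and no SOX match, and 19.8% of all elements held an AGGTCA match.

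Sox2 +2.8 kb (chr3:34652546-34652973), at the 3′ end of Sox2, rose over the same time. It had 47.3, 39.1 and 35.5 in NMPs, 31 to 67.5 (median 47.4) at day 4, 88.2 to 180 (median 127) at day 5 and 123 to 360 (median 219) at day 6. The NMP and day 4 samples overlapped, and those of day 5 and day 6 were all higher. It was called in p0-1 (log2 2.41, SE 0.23, adjusted p = 3.95e-06), p2 (2.17) and pMN (2.13). Sox1 +14.3 kb fell by 2.34 in p0-1, by 2.13 in p2 and by 2.02 in pMN. In p3 the member called lower was Sox1 +35.2 kb, which fell by 2.40 (SE 0.17, adjusted p = 3.61e-07).

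In p0-1, 2 of 25 tested members were called higher and 1 lower from day 4 to day 6, against 6.93% and 2.07% of all tested elements. At an unadjusted limma p under 0.05 there were 17 of 25 members in p0-1 and 22 of 25 in p2. There were 20 of 24 in pMN and 12 of 19 in p3. The shares of all tested elements were 56%, 73.9%, 72.2% and 61.8%. From NMP to day 4 there were 15 of 24, 16 of 23, 18 of 22 and 14 of 20 members. The shares of all tested elements there were 71.8%, 89.7%, 88.7% and 80.9%. The counts of calls were 2 and 1 of 25 in p2 (background 8.2% and 1.9%), 2 and 1 of 24 in pMN (7.94% and 1.98%) and 1 and 1 of 19 in p3 (7.44% and 1.69%). These shares were near the background. The median log2 ratio of the members was 0.33, 0.45, 0.41 and -0.04, and that of all tested elements 0.23, 0.27, 0.25 and 0.18. Sox14 +77.5 kb, which had risen by day 4, had further log2 ratios of 1.37, 1.06, 1.47 and 1.28 that were not called.

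p3 progenitors, the most ventral type, had lower values than pMN at some distal elements of Sox1 and Sox3. Others had the opposite direction, such as Sox3 +112.3 kb, with a day 6 log2 ratio of p3 to pMN of 1.45 that was not called. At day 6 the 4 pMN samples had 2149, 1738, 1879 and 1238 normalized counts at Sox1 +35.2 kb and the 4 p3 samples had 397, 479, 303 and 342. At Sox1 +37.2 kb they had 308, 232, 215 and 188 against 57.7, 60.0, 43.9 and 42.7. At Sox3 +157.3 kb (chrX:60735485-60736740) they had 217, 228, 169 and 169 against 29.7, 23.4, 9.24 and 7.77. The groups did not overlap at any of the 3 elements. These were picked by the calls between the same samples, so the lack of overlap is no separate support. The log2 ratios of p3 to pMN were -2.20 (SE 0.18, adjusted p = 1.48e-05), -2.19 (SE 0.19, adjusted p = 2.57e-05) and -3.41 (SE 0.29, adjusted p = 3.2e-05). By the sample titles, both groups held replicate numbers 2 and 3 only, each at 100 and 500 nM. The fit counted all of them as separate samples, so these p-values may be too small. The call at Sox1 +37.2 kb was lost with the difference of VST values as the fold (-1.96), and that at Sox1 +35.2 kb without replicate 2 (-1.86).

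At both Sox1 elements the log2 ratios were closer to 0 at earlier days. At day 4 Sox1 +35.2 kb had 2370 to 3072 (median 2680, n = 6) in pMN and 2717, 2142, 1964, 1554 and 1650 in p3, which overlapped, and the log2 ratio was -0.44. At day 5 pMN had 2328, 2454, 2035, 2656 and 1862 and p3 745, 1049, 1041, 957 and 881, without overlap, with a log2 ratio of -1.28. For Sox1 +37.2 kb the log2 ratio was -0.11 at day 4, with overlap, and -1.67 at day 5, where pMN had 284, 255, 213, 210 and 175 and p3 had 70.9, 76.4, 76.5, 80.8 and 48.2. The difference between p3 and pMN in their change from day 4 to day 6 was called at Sox1 +37.2 kb (-2.07, SE 0.25, adjusted p = 3.13e-05), 1 of 22 tested members against a background of 2.35%. At Sox1 +35.2 kb it was -1.76 (adjusted p = 2.15e-05), under the threshold on the log2 ratio.

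Means at day 6 in p0-1, p2, pMN and p3 were 3029, 1963, 1751 and 380 normalized counts at Sox1 +35.2 kb, 297, 277, 236 and 51.1 at Sox1 +37.2 kb, and 282, 225, 196 and 17.5 at Sox3 +157.3 kb. The values of p3 were thus the lowest at each. Sox3 +61.8 kb (chrX:60831119-60832197) had the largest excess of pMN over p3, with 156, 223, 84.2 and 126 in pMN and 8.24, 16.3, 5.77 and 4.86 in p3, without overlap. Its mean over these samples was under 100, and it was called only without the filter on the mean (log2 -3.92, adjusted p = 7.88e-06). Sox1 +18.2 kb (chr8:12413625-12413893) had the largest excess in p3, with 28, 66.1, 34.6 and 108 in p3 and 4.48, 3.76, 8.02 and 9.34 in pMN, without overlap, and was likewise called only without the filter (3.02, adjusted p = 0.000325). At day 5, Sox3 +61.8 kb (-2.56) and Sox3 +157.3 kb (-2.28) were also called only without the filter. Sox3 +97.2 kb had another course. At day 4 it had 99.8 to 193 (median 143, n = 6) in pMN and 22.2, 13.3, 40.8, 31.4 and 39.7 in p3, without overlap, and was called lower in p3 only without the filter (log2 -2.27, adjusted p = 1.39e-06). At day 6 it had 17.9, 29.1, 22 and 29.2 in pMN and 62.7, 24.4, 21.9 and 10.7 in p3, which overlapped (log2 0.27). These low values rest on few reads.

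At day 6, 0 of 22 tested members were called higher in p3 and 3 lower, against 5.03% and 5.97% of all tested elements, and the median log2 ratio was -0.41 against 0.00. At day 4, 0 of 21 were called in either direction by limma, against 0.179% of all tested elements higher and 1.07% lower. At an unadjusted p under 0.05 there were 9 of the 21 members and 37.4% of all elements. At day 5, 0 of 22 were called by limma, against 1.99% and 3.68%, and at an unadjusted p under 0.05 there were 12 of the 22 members and 54.6% of all elements. Over the Sox3 promoter the day 6 log2 ratio was -0.47 (adjusted p = 0.000467), with means of 1838 in pMN and 1328 in p3, and it was not called.

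Marker values moved with this comparison too. At day 6 the summed normalized counts at 2 floor plate elements were 483 to 776 in p3 and 293 to 343 in pMN, those at 3 mesoderm elements were 1569 to 1802 and 1157 to 1440, and those at 2 elements of p3 marker genes were 3143 to 3953 and 2006 to 2653. The sums at 3 elements of neuronal genes overlapped, with 1924 to 3149 in p3 and 2920 to 3739 in pMN. None of these lists was at 0 in any group. At the start site of Olig2, which marks pMN, the day 6 means were 2325 in pMN and 1005 in p3, and at that of Foxa2, a gene of p3 and floor plate, they were 277 and 1662. At Nkx2-9, the other p3 marker gene, they had the opposite order, 2091 in pMN and 1914 in p3. Of the mesoderm elements, that of Tbx6 was lower in p3 (827 in pMN, 693 in p3). Those of Meox1 (369 and 856) and Msgn1 (33.6 and 121) were higher in p3. No element of Nkx2-2, which defines p3, was among those used. Their part in the differences was not tested.

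**Figure D4:**
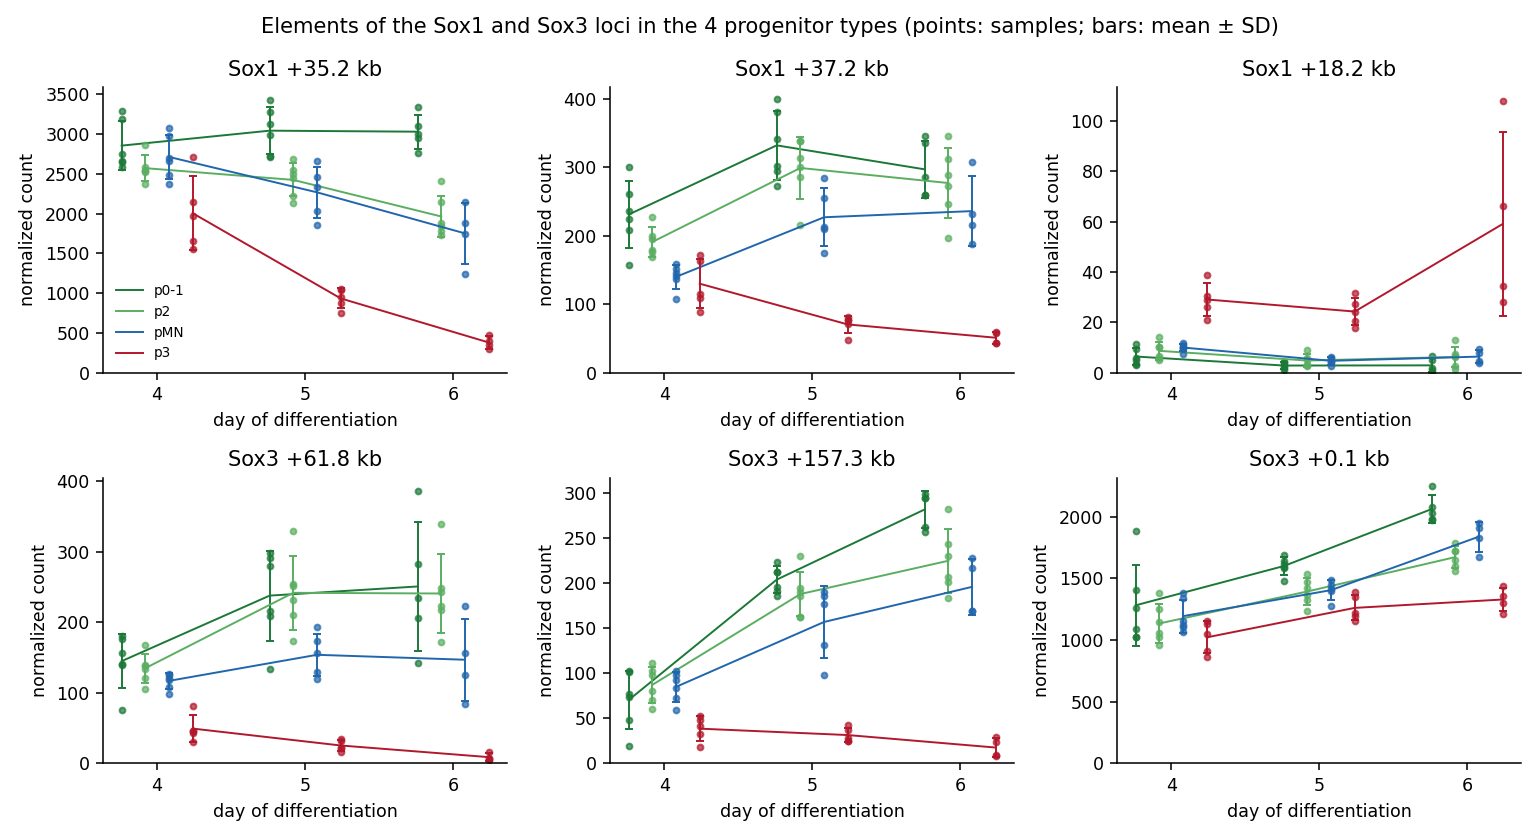
Normalized counts against day of differentiation for 6 elements of Sox1 and Sox3 in p0-1, p2, pMN and p3, where points are samples and bars are mean ± SD. By day 6 the p3 samples lie below those of the other types at Sox1 +35.2 kb, Sox1 +37.2 kb, Sox3 +61.8 kb and Sox3 +157.3 kb and above them at Sox1 +18.2 kb.

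No member was called between p0-1 and pMN at day 6 or between SAG concentrations at day 5, the other comparisons fitted. Between p0-1 and pMN at day 6, 0 of 24 tested members were called by limma, against a background of 2.9%, and at an unadjusted p under 0.05 there were 9 of the 24 members and 40.2% of all elements. Between the lower and higher SAG concentration within a type at day 5, 0 of 25 members were called in p0-1, 0 of 24 in p2, 0 of 23 in pMN and 0 of 22 in p3, and the background was 0% in each. At an unadjusted p under 0.05 there were 4, 1, 2 and 0 of these members. The shares of all tested elements were 15.1%, 11.6%, 2.65% and 0.491%. Over the 26 members with a mean above 100 and 12 combinations of type and day, the median absolute log2 ratio between the means at the 2 concentrations was 0.14, and 3 of 312 ratios (0.962%) exceeded 1. These were Sox3 +112.3 kb in p0-1 at day 6 (220 at 0 nM, 73.5 at 10 nM) and, in p3 at day 6 with 2 samples at each concentration, Sox3 +157.3 kb (26.5 and 8.5) and Sox3 +61.8 kb (12.3 and 5.31). The mean of 220 is also of 2 samples, and 1 of them had 357, the highest value of day 6 at this element.

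Counts of motif matches are given beside those of the whole table, without a test. In the central 300 bases, 15 members (37.5%) held ACAAAG and 12 (30%) held ACAATG on either strand, against 31.1% and 21.1% of all elements, and 23 (57.5%) held either, against 44.6%. The octamer ATGCAAAT was in 3 members (7.5%, against 2.3% of all elements), AGGTCA in 9 (against 19.8%), the CDX motif TTTATNG in 3 (against 13.4%), the FOX motif TGTTTAC in 2 (against 4.96%) and the TCF/LEF motif CTTTGAT in 1 (against 5.04%). No member held the SOX-POU composite motif, the T-box motif AGGTGTGA or the GLI motif TGGGTGGTC, which were in 0.0609%, 1.06% and 0.392% of the table. ACAATG and ATGCAAAT can share letters with the composite motif. Members had a median width of 1055 bp against 883 bp for all elements, and a match is only a match of letters.

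Of the 6 printed sequences, Sox1 +37.2 kb held 2 ACAATG matches and the octamer, and Sox14 +77.5 kb held both SOX motifs and the nuclear receptor motif. Sox1 +14.3 kb held 1 AGGTCA match on the - strand, and Sox3 +94.0 kb held no match to any of the motifs searched. Their GC contents were 38.3% at Sox2 +29.6 kb, 49% at Sox1 +14.3 kb, 56.3% at Sox1 +37.2 kb, 41.7% at Sox3 +94.0 kb, 54% at Sox3 +162.0 kb and 40% at Sox14 +77.5 kb.

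The promoters with the pattern most like each start-site element were ranked by Pearson correlation over the 25 condition means of VST values among 6977 promoter elements. These points share the same libraries and depth. For Sox3 +0.1 kb they were Fez1 (0.97), Dcun1d4 (0.93) and Fgfr3 (0.93), and for Sox14 +0.1 kb Esrp1 (0.99), Dmtn (0.99) and Slc5a5 (0.98). For Sox1 +0.8 kb they were Gm38414 (0.89), Ednrb (0.87) and Nebl (0.86), and for Sox2 -0.4 kb Rab30 (0.84), Morf4l2 (0.83) and Slx4ip (0.80). By Spearman rank correlation the first was Fez1 for Sox2 -0.4 kb (0.87), 4930452A19Rik for Sox3 +0.1 kb (0.97), Mest for Sox1 +0.8 kb (0.81) and T, the NMP gene Brachyury, for Sox14 +0.1 kb (0.97).

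Elements of other genes of the family and of SoxB partners were counted for reference. Of 143 elements at 13 other Sox genes, 18 of 42 tested were called higher and 2 lower in p0-1 at day 4 against NMP, 22 and 2 of 46 in p2, 22 and 1 of 46 in pMN, and 17 and 2 of 41 in p3, with median log2 ratios of 0.72, 1.72, 1.74 and 1.16. The shares of all tested elements in these comparisons were 14.4%, 16.4%, 16.9% and 13.8% higher and 6.21%, 7.13%, 7.41% and 7.74% lower. Of 46 elements at 12 POU partner and target genes of SoxB factors, 3 of 30 were called higher and 3 lower in p0-1, 3 and 3 of 30 in p2, 3 and 5 of 30 in pMN, and 1 and 3 of 29 in p3, with medians of -0.32, -0.38, -0.41 and -0.36. For p3 against pMN at day 6 the counts were 4 higher and 4 lower of 56, and 0 and 2 of 21, against 5.03% and 5.97% of all tested elements.

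Sox21 (chr14:118233232-118237030, - strand) had no member, because the element over the gene carries the name of the neighbouring gene LOC105245869 in the annotation. This and the elements in the next 3 sentences were singled out after their values were seen. The element over Sox21 (chr14:118234359-118237491) had 1790, 1752 and 1489 normalized counts in NMPs, a mean over the 4 types of 1423 at day 4 and means of 2002 to 2338 at day 6. An element 5.9 kb downstream of the Sox21 start (chr14:118230015-118232256) had 287 to 368 in NMPs and 1240 to 3100 at day 4, and 1 at -132.4 kb, upstream of it (chr14:118368539-118370416) had 44.5 to 54.5 and then 781 to 1272, and both were called higher in all 4 types. Around Sox2, the promoter of Sox2ot lies 90 kb upstream (chr3:34558719-34562031) and had 18.9 to 23.0 in NMPs and 464 to 1004 at day 4 (log2 5.16 for the means), called higher in all 4 types, while an element 106.9 kb downstream (chr3:34756266-34758257, annotated to Gm38509) had 176 to 224 and then 15.7 to 32.4, without overlap, and was not tested because its mean was below 100. The region downstream of Sox2 is known to hold the enhancers that drive it in ES cells.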

How the data were processed

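CaTS-ATAC reads had been processed by the authors with nf-core/atacseq (mm10, peaks called with MACS2, consensus peaks from at least 2 replicates, reads counted per peak), and the deposited values are on a log2 scale, made from the counts with DESeq2's size factors and its variance-stabilizing transformation (VST). HOMER annotation assigned each element to its nearest start site. Inverting the transformation gave whole reads for 100% of values below 1000 reads (tolerance 0.001). Depth was 9298160 to 29985325 reads in elements per sample (median 20254011).

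VST values were fitted with limma 3.58.1 in R 4.3.3 (variance trend, 2-sided, Benjamini-Hochberg over all tested elements), each fit holding the compared groups alone and SAG concentrations pooled. Replicates are separate differentiations according to the design text of the series, but samples of 1 replicate number at 2 SAG concentrations may share one, so p-values may be too small (an average over SAG was tried). The fits were tested on simulated data, and all changed elements tested (160 of 160 for day 4 p2 against NMP, 172 of 172 for p3 against pMN at day 6) were recovered at a 6-fold change. At a 3-fold change, which is under the log2 threshold of 2, 6 of 179 and 8 of 185 were. The simulated samples were independent, with the same dispersion for all elements and no shared differentiations. The simulation therefore cannot tell whether p-values of the real samples are too small. Motifs and sequences were taken from GRCm38 with Python 3.11.15, and figures were drawn with matplotlib 3.10.9.

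Members, gene lists and tests were chosen with earlier results of these data known. Elements are named by value if nearest the start site, if they had the largest rise or fall from NMP or the largest excess between p3 and pMN, or if called where 5 or fewer were. For the others the text gives counts and examples chosen after their values were seen (such as the elements beside Sox2 +7.5 kb and Sox1 -3.9 kb). Of 16 comparisons, 10 had 3 pairs of replicate numbers. In 5 of these 10 the numbers paired the samples, with all 3 correlations of deviations above 0.1 (p3 at day 4 against NMP, p3 against pMN at days 4 and 5, and SAG in p0-1 and p2). The other comparisons had 2 pairs and could not meet this rule, and their correlations were 0.22 to 0.82. For p3 against pMN at day 6 the correlation was 0.54. For 15 samples the title and description give different replicate numbers, and both were tried. Alternatives were no filter on the mean, a log2 threshold of 1, the VST difference as the fold, values averaged over SAG, centring on the median, replicate blocks and leaving out samples.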

Additional observations from a re-analysis of the deposited data

Results flagged for a closer look

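In 5 of 204 groups of 4 to 6 samples, over 17 named members, 1 sample lay far from the rest by the ratio of its gap to the range (Dixon's 95% criterion, which chance passes in about 5% of groups). At Sox2 +7.5 kb and Sox14 +0.1 kb it was the same sample, p0-1 at day 4, 10 nM, replicate 3, with 107 normalized counts against 48.9 to 70.6 in the other p0-1 samples (ratio 0.628) and 338 against 131 to 192 (ratio 0.705). Both elements were highest in NMPs, and this sample also had the highest NMP marker sum of day 4 (2667). At Sox14 +0.1 kb, pMN at day 4, 500 nM, replicate 1 had 105 against 133 to 147 (ratio 0.663), and p2 at day 6, 10 nM, replicate 2 had 99.6 against 78.8 to 85.6 (ratio 0.673). At Sox14 +77.5 kb, p3 at day 4, 100 nM, replicate 2 had 756 against 1017 to 1082 (ratio 0.799).

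The change of Sox1 +37.2 kb from day 4 to day 6 differed between p3 and pMN by -2.07 log2 units in the test of the difference itself (limma, n = 19, adjusted p = 3.13e-05).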

How the results depend on the processing

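Of 602 alternative values for the 40 calls of single members, 584 kept direction and threshold, 18 lost the threshold and 0 reversed. Some alternatives, such as the replicate block, left the log2 ratio unchanged, so their values could neither fall under its threshold nor reverse. Calls lost under the filter on the mean, as with values averaged over SAG, are not among the 18. Without the filter on the mean, the members called lower from NMP to day 4 went from 1 to 3 and those from day 4 to day 6 from 2 to 4 higher and from 2 to 7 lower. Under the same setting p3 against pMN gave 1 higher in place of 0 and 6 lower in place of 3, p0-1 against pMN gave 1 in place of 0, and the difference of the changes between p3 and pMN gave 4 in place of 1. With a log2 threshold of 1 the counts were 4 lower from NMP to day 4, 7 higher and 5 lower from day 4 to day 6, 5 lower in p3, 1 between p0-1 and pMN, and 2 for the difference of the changes. Centring gave 2 lower from NMP to day 4, and the VST difference gave 0 for the difference of the changes and 2 lower in p3 against pMN, losing Sox1 +37.2 kb in both. The share of all elements called can change with the setting too and is not given here. These counts therefore describe the calls and are not a result about the members.

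The 9 members called higher from NMP to day 4 numbered 6 to 13, the fewest with values averaged over SAG, where Sox3 +61.8 kb, Sox3 +97.2 kb and Sox3 +112.3 kb fell under the filter. Leaving out 1 sample or replicate number gave 1 to 2 lower from NMP to day 4, 1 to 3 higher from day 4 to day 6, and 1 to 2 for the difference of the changes. Without p0-1 at 10 nM, replicate 3, an alternative chosen after seeing the data, Sox2 +7.5 kb was also called lower, giving 2, and Sox3 +61.8 kb was lost. Without replicate 2, Sox2 +2.8 kb (day 4 to day 6), Sox1 +35.2 kb (p3 against pMN) and Sox1 +37.2 kb (difference of the changes) were lost. The cause was not tested.

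With the replicate block the counts were 9 higher and 1 lower from NMP to day 4, 2 and 2 from day 4 to day 6, 0 and 3 for p3 against pMN and 1 for the difference of the changes, and it changed no other call. Elements under 100 normalized counts, 14 of the 40, limit what can be tested.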
